A study of Mus musculus with 6 samples.

Results

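The nuclear genes of the respiratory chain and of ATP synthase were compared between colon tumors and colon tissue of mice. Members were the protein-coding genes whose symbol begins with Nduf, Uqcr, Cox4 to Cox8 or Atp5, together with Sdha to Sdhd, Cyc1 and Cycs. The pattern found 95 genes among 18470 protein-coding genes, in a table of 33573 genes. Of these, 84 encode subunits, with 37 in complex I, 4 in complex II, 9 in complex III, 17 in complex IV and 17 in complex V. A further 8 are complex I assembly factors, 1 is the supercomplex factor Cox7a2l, 1 is the electron carrier Cycs and 1, Cox5b-ps, is a processed copy of Cox5b that the table types as protein coding. Enough counts for a test were present for 93 of the 95, and Cox6a2 and Cox8b were left untested. Subunits encoded by mitochondrial DNA were not analysed here, as 0 genes of the table lay on the mitochondrial chromosome.

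All 6 libraries came from male C57BL/6 mice. The mice were 8 to 10 weeks old when given azoxymethane (AOM), a carcinogen, at 10 mg/kg by intraperitoneal injection. Dextran sodium sulfate (DSS), which injures the colon epithelium, followed, so the mice were older when tissue was taken. DSS was given at 2.5% for 1 week, followed by 3 weeks of water, over 3 cycles. The tumor group held 3 libraries of colon tumors and the colon group 3 libraries of colon tissue, numbered 2, 4 and 20 in both. Colon tissue came from the same AOM/DSS treatment and is no untreated control. Both were pieces of tissue, whose cell makeup can differ.

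The respiratory chain passes electrons from NADH, at complex I, and from succinate, at complex II, through ubiquinone to complex III, then by cytochrome c to complex IV, where oxygen is reduced. Complexes I, III and IV pump protons across the inner mitochondrial membrane, and complex V, the ATP synthase, uses the returning protons to make ATP. Each complex is built with the help of assembly factors that are not part of the finished enzyme. Colonocytes of normal colon are known to draw much of their energy from the oxidation of butyrate in mitochondria.

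Total counts lay between 16995481 and 20789620 per library, and 18520 genes were tested. Levels are given as CPM, counts scaled to library size by the trimmed mean of M-values (TMM), and levels of different genes are compared as FPKM, which also allows for gene length. Changes are log2 tumor over colon with approximate standard errors, n = 3 libraries per group, and p-values of the quasi-likelihood test in edgeR were adjusted by Benjamini-Hochberg over all genes tested and called at 0.05. Cell type markers differed between the groups. The summed level of 11 smooth muscle genes was 669 to 1365 CPM in tumor and 10557 to 11029 CPM in colon, and all 11 were lower in tumor. The sum of 12 pan-epithelial genes was 9909 to 11722 CPM in tumor and 9920 to 11114 CPM in colon, with 3 of 12 higher and 1 at 0 in a library. For 10 colonocyte genes the sums were 351 to 1056 CPM in tumor and 1770 to 3759 CPM in colon, with 6 lower. Pericyte genes summed to 186 to 245 CPM and 357 to 448 CPM with 3 of 6 lower, 5 of 5 neutrophil genes were higher (83.5 to 222 against 1.29 to 6.92 CPM, with 3 at 0 in a library), and 0 of 5 proliferation genes were called. The part of these markers in the results that follow was not tested.

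Subunit genes were lower in tumor across all 5 complexes. Of 82 subunits tested, 58 fell and 0 rose, where 16.1% of all genes tested were lower and 16.1% higher. The median log2 change of the subunits was -0.53, which is 69.5% of the colon level, beside 0.01 over all genes tested, and 77 of 82 changes were negative. In the higher direction 2 subunits had an unadjusted p below 0.05, Ndufa4 and Cox6b2, and DESeq2 and limma-voom also called 0 higher, with 64 and 57 lower. All 3 tumor libraries lay below all 3 colon libraries for 69 of the 82 subunits, against 24.2% of all genes tested, and above them for 2 subunits, against 25.3%. Together the 95 genes took 0.965% to 1.11% of the counts in tumor libraries and 1.24% to 1.51% in colon libraries. In bulk tissue, fewer cells of a type and less RNA per cell cannot be told apart.

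The fall was seen within each number and rested in part on single libraries. Within numbers 2, 4 and 20 the median difference of the subunits was -0.50, -0.59 and -0.52 on the log2 scale. Tumor replicate 2 was the lowest of the 6 libraries for 64 of 82 subunits. Among colon libraries, replicate 2 was the lowest for 75 subunits, while the highest of the 6 libraries was colon replicate 4 for 43 subunits and colon replicate 20 for 34. The summed colonocyte markers were also lowest in replicate 2 of each group and, among colon libraries, highest in replicate 4. They came to 351, 1056 and 704 CPM in tumor (replicates 2, 4 and 20) and 1770, 3759 and 2524 CPM in colon (same order). Smooth muscle sums had the same order, with 669, 1365 and 936 CPM in tumor and 10557, 11029 and 10792 CPM in colon. Pericyte sums were lowest in replicate 2 among colon libraries and highest in replicate 2 among tumor libraries. Neutrophil sums were highest in replicate 2 of both groups. Of single colonocyte genes, Ceacam20 and Ms4a12 were highest in replicate 2 among colon libraries, and Slc37a2 in replicate 2 among tumor libraries. The part of any of these cell types in the subunit levels was not tested. Leaving out colon replicate 4 left 26 subunits lower, and leaving out colon replicate 20, tumor replicate 2 or tumor replicate 20 left 35, 36 or 37, while 68 were lower without colon replicate 2. The median stayed between -0.61 and -0.46 in these fits, and the same 26 subunits were called lower in each fit with 1 library left out. With the replicate number as a block, 62 subunits were lower.

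**Figure D1:**
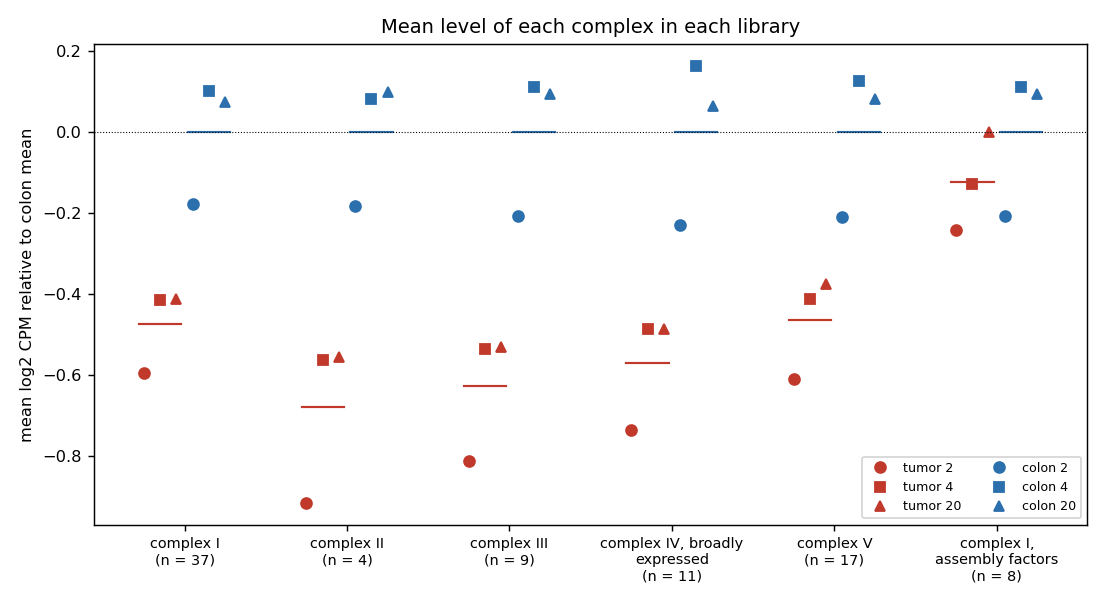
Mean log2 CPM of the tested subunits of each complex, of the 11 broadly expressed subunits of complex IV and of the 8 complex I assembly factors in each library (y axis, relative to the mean of the 3 colon libraries); red is tumor, blue is colon, symbols give the replicate number and bars the group means. All tumor libraries lie below all colon libraries for each complex, while the libraries of both groups overlap for the assembly factors.

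Complex I, NADH dehydrogenase, is the entry point for electrons from NADH. Of its 37 subunits 24 fell and 0 rose, with a median log2 change of -0.44 and a range from -1.01 to 0.03. None of the 37 had an unadjusted p below 0.05 in the higher direction, and DESeq2 and limma-voom called 0 higher. The core subunits, which include those that carry the flavin and the iron-sulfur clusters, had 5 of 7 lower (median -0.42), and the accessory subunits around them 19 of 30 (median -0.44).

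Among core subunits the largest fall was that of Ndufs7 (ENSMUSG00000020153, chromosome 10, 80084955 to 80092628, GRCm39), which holds the last iron-sulfur cluster before ubiquinone. Ndufs7 levels were 39.3, 55.8 and 49.2 CPM in tumor (replicates 2, 4 and 20) and 62.1, 83.8 and 91.3 CPM in colon (same order). The groups did not overlap, and tumor replicate 2 was lowest (log2 change -0.72 ± 0.19 SE, edgeR adjusted p = 0.0248). Its call was lost without colon replicate 4, where its edgeR adjusted p was 0.0851, the highest of its alternatives, and also without colon replicate 20, tumor replicate 2 or tumor replicate 20. Ndufs1, an iron-sulfur subunit, and Ndufv1, which binds NADH and flavin, fell, with log2 values of -0.58 (edgeR adjusted p = 0.0131) and -0.52 (edgeR adjusted p = 0.00745). The call of Ndufs1 was lost without colon replicate 4. Ndufv2 was not called (log2 -0.29, edgeR adjusted p = 0.144).

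Of the accessory subunits, Ndufb10 (ENSMUSG00000040048, chromosome 17, 24941034 to 24943452, GRCm39), of the membrane arm, fell most. Ndufb10 levels were 46.2, 58.4 and 62.7 CPM in tumor (replicates 2, 4 and 20) and 96.6, 113 and 127 CPM in colon (same order). The groups lay apart, with the highest tumor library at 62.7 CPM and the lowest colon library at 96.6 CPM (log2 change -1.01 ± 0.16 SE, edgeR adjusted p = 0.00386). Tumor held 49.7% of its colon level. Ndufb9 (ENSMUSG00000022354, chromosome 15, 58805605 to 58811337, GRCm39), also of the membrane arm, came next. Ndufb9 levels were 12.5, 14.9 and 15.5 CPM in tumor (replicates 2, 4 and 20) and 21.6, 28.4 and 27.8 CPM in colon (same order). Ndufb9 in tumor was at 55.1% of its colon level (log2 change -0.86 ± 0.17 SE, edgeR adjusted p = 0.00919). Ndufa5 (ENSMUSG00000023089, chromosome 6, 24518665 to 24528012, GRCm39), of the peripheral arm, followed. Ndufa5 levels were 19.2, 23.5 and 26.5 CPM in tumor (replicates 2, 4 and 20) and 35.3, 47.8 and 41.3 CPM in colon (same order). Ndufa5 in tumor was at 55.6% of its colon level (log2 change -0.85 ± 0.17 SE, edgeR adjusted p = 0.0105). For all 3 genes the groups did not overlap and the call was kept in all 18 alternatives. Ndufa1, the accessory subunit with the highest mean FPKM, had 113 ± 5.31 FPKM in tumor and 145 ± 8.33 FPKM in colon (SD, n = 3) and fell by 0.48 (edgeR adjusted p = 0.0106).

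Not every accessory subunit was lower. The groups overlapped for Ndufc2, with 0.01 on the log2 scale (edgeR adjusted p = 0.966), and for Ndufs4, a subunit near the NADH site, with 0.03 (edgeR adjusted p = 0.89). Ndufs4 levels were 48.03, 50.6 and 47.4 CPM in tumor (replicates 2, 4 and 20) and 41.8, 48.1 and 53.6 CPM in colon (same order). Tumor and colon libraries of Ndufs4 were interleaved. The other 9 accessory subunits not called had log2 changes between -0.47 and -0.11. With the replicate number as a block, Ndufa12 lost its call (edgeR adjusted p = 0.0304 without the block and 0.0528 with it), and Ndufs6 was called with it and not without it (0.0382 and 0.0583).

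Complex II, succinate dehydrogenase, is both a respiratory complex and an enzyme of the citric acid cycle. All 4 subunits fell, between -0.73 and -0.63 on the log2 scale. Sdha (ENSMUSG00000021577, chromosome 13, 74470373 to 74498399, GRCm39) is the flavoprotein that oxidizes succinate. Sdha levels were 203, 296 and 274 CPM in tumor (replicates 2, 4 and 20) and 399, 447 and 435 CPM in colon (same order). Tumor replicate 2 was lowest and the groups did not overlap (log2 change -0.73 ± 0.15 SE, edgeR adjusted p = 0.0118). Sdhb (ENSMUSG00000009863, chromosome 4, 140688514 to 140706504, GRCm39), the iron-sulfur subunit, passes the electrons on. Sdhb levels were 69.9, 81.8 and 86.1 CPM in tumor (replicates 2, 4 and 20) and 102, 137 and 148 CPM in colon (same order). Sdhb in tumor was at 61.4% of its colon level (log2 change -0.70 ± 0.16 SE, edgeR adjusted p = 0.0164). The membrane anchors Sdhc and Sdhd bind ubiquinone. Sdhc levels were 90.2, 109 and 112 CPM in tumor (replicates 2, 4 and 20) and 148, 166 and 168 CPM in colon (same order). Sdhc in tumor was at 64.7% of its colon level (log2 change -0.63 ± 0.12 SE, edgeR adjusted p = 0.00819). Sdhd levels were 132, 170.3 and 174 CPM in tumor (replicates 2, 4 and 20) and 217, 266 and 261 CPM in colon (same order). Sdhd in tumor was at 64.02% of its colon level (log2 change -0.64 ± 0.14 SE, edgeR adjusted p = 0.0143). All tumor values of both lay below all colon values. Sdhd had the highest mean FPKM of the complex, with 134 ± 18.1 FPKM in tumor and 193 ± 18.4 FPKM in colon (SD, n = 3). Without colon replicate 4, Sdha and Sdhc stayed called, while Sdhb and Sdhd had edgeR adjusted p = 0.062 and 0.0555. Sdhb also lost its call without colon replicate 20.

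Complex III, the cytochrome bc1 complex, oxidizes ubiquinol and reduces cytochrome c. All 9 nuclear-encoded subunits measured fell, between -0.84 and -0.50, with a median of -0.64. Uqcrfs1 (ENSMUSG00000038462, chromosome 13, 30724291 to 30729345, GRCm39), the Rieske iron-sulfur protein, fell most. Uqcrfs1 levels were 107, 132 and 138 CPM in tumor (replicates 2, 4 and 20) and 173, 253 and 246 CPM in colon (same order). The lowest colon library, replicate 2, was still above the highest tumor library (log2 change -0.84 ± 0.18 SE, edgeR adjusted p = 0.0116). Uqcrb, a small subunit near the ubiquinone site, fell by 0.69 (edgeR adjusted p = 0.00707). Uqcr10, a small membrane subunit, fell by 0.68 (edgeR adjusted p = 0.0269) and had the highest mean FPKM, with 208 ± 38.5 FPKM in tumor and 306 ± 44.3 FPKM in colon (SD, n = 3). Cyc1, cytochrome c1, hands the electron to cytochrome c. Cyc1 levels were 146, 179 and 174 CPM in tumor (replicates 2, 4 and 20) and 208, 276 and 293 CPM in colon (same order). Cyc1 in tumor was at 64.4% of its colon level (log2 change -0.64 ± 0.16 SE, edgeR adjusted p = 0.0204). Leaving out colon replicate 4 ended the calls of Cyc1 and Uqcr10 (edgeR adjusted p = 0.074 and 0.0936), and 5 of the 9 subunits were then lower, as were 5 without colon replicate 20. Both calls were also lost without colon replicate 20, tumor replicate 2 or tumor replicate 20, and that of Uqcr10 in both limma fits on log2 FPKM.

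Cycs (ENSMUSG00000063694, chromosome 6, 50539543 to 50543518, GRCm39), the soluble carrier between complexes III and IV that also takes part in apoptosis, did not pass the test. Cycs levels were 94.6, 115 and 123 CPM in tumor (replicates 2, 4 and 20) and 106, 144 and 137 CPM in colon (same order). The groups overlapped, since colon replicate 2 lay below tumor replicates 4 and 20 (log2 change -0.22 ± 0.15 SE, edgeR adjusted p = 0.311). Over the 18 alternatives its adjusted p ran from 0.000386 to 0.634, and it was called lower in 1, with all genes scaled to 12 pan-epithelial genes, a scaling that lowered the median of all genes to -1.27. Transcripts of 3 other genes shared at least 150 bases at 98% identity or more with Cycs, and their counts came to 7.85% of its own.

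Complex IV, cytochrome c oxidase, reduces oxygen. Several of its subunits come as pairs of a broadly expressed form and a form restricted to certain tissues. Of 15 subunits tested 10 fell and 0 rose (median -0.55); 2 had an unadjusted p below 0.05 in the higher direction, and DESeq2 and limma-voom called 0 higher. Among the 11 broadly expressed subunits, 9 fell, with a median of -0.70, and among the 4 restricted ones that were tested 1 fell.

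Cox7a1 (ENSMUSG00000074218, chromosome 7, 29883569 to 29885503, GRCm39), the heart and muscle form of subunit 7a, had the largest fall of all members. Cox7a1 levels were 4.54, 2.93 and 4.54 CPM in tumor (replicates 2, 4 and 20) and 11.8, 10.9 and 9.23 CPM in colon (same order). All tumor values were below all colon values (log2 change -1.41 ± 0.25 SE, edgeR adjusted p = 0.00617). Smooth muscle markers fell in the same libraries, with a median log2 change of -3.33 over 11 genes, and the part of muscle in this change was not tested. The broadly expressed partner, Cox7a2, fell by 0.52 (edgeR adjusted p = 0.0102). Cox6a1 (ENSMUSG00000041697, chromosome 5, 115483701 to 115487040, GRCm39), the broadly expressed form of subunit 6a, had the next largest fall in complex IV. Cox6a1 levels were 173, 239.6 and 256 CPM in tumor (replicates 2, 4 and 20) and 333, 445 and 469.6 CPM in colon (same order). Cox6a1 in tumor was at 53.6% of its colon level (log2 change -0.90 ± 0.19 SE, edgeR adjusted p = 0.0121). Cox8a (ENSMUSG00000035885, chromosome 19, 7192518 to 7194981, GRCm39), a small membrane subunit, had the highest mean FPKM of all members, with 394 ± 42.4 FPKM in tumor and 640.2 ± 86.7 FPKM in colon (SD, n = 3). Cox8a levels were 204, 238 and 261 CPM in tumor (replicates 2, 4 and 20) and 348, 465 and 429 CPM in colon (same order). Cox8a in tumor was at 56.6% of its colon level (log2 change -0.82 ± 0.15 SE, edgeR adjusted p = 0.00658). Neither gene's groups overlapped. Cox4i1, the form of subunit 4 used in most tissues, fell from a mean of 572 ± 63.5 to 337 ± 32.8 CPM (log2 -0.76 ± 0.13 SE, edgeR adjusted p = 0.00484), though it overlaps Emc8 on the other strand, whose counts came to 34.3% of its own, and the use of strand in counting is not given in the sources used here. Cox6b1, which helps join the dimer, fell by 0.48 (edgeR adjusted p = 0.0199), a call kept in 12 of 18 alternatives and lost in both limma fits on log2 FPKM and without colon replicate 4, colon replicate 20, tumor replicate 2 or tumor replicate 20. Cox7c, at an edgeR adjusted p of 0.05001, was just outside the threshold (log2 -0.45).

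Ndufa4 (ENSMUSG00000029632, chromosome 6, 11900291 to 11907496, GRCm39), first assigned to complex I and now known as a subunit of complex IV, stood apart from the other broadly expressed subunits. Ndufa4 levels were 158, 138 and 155 CPM in tumor (replicates 2, 4 and 20) and 91.7, 113 and 135 CPM in colon (same order). All 3 tumor libraries were above all 3 colon libraries, though the change did not pass the test (log2 change 0.41 ± 0.15 SE, edgeR adjusted p = 0.0769). Ndufa4 passed as higher when colon replicate 20 was left out and in both limma fits on log2 FPKM (pseudocounts of 1 and 0.1), and as lower with scaling to 12 pan-epithelial genes, a scaling under which the median change of all genes was -1.27 and the change of Ndufa4 -0.90. Relative to each of the other 10 broadly expressed subunits, its log2 ratio was 0.87 to 1.33 higher in tumor than in colon, and the ratio to Cox6a1 was -0.14, -0.80 and -0.72 in tumor (order 2, 4, 20), beside -1.86, -1.98 and -1.80 in colon. These ratios were chosen after the values of Ndufa4 were seen and were given no test. Its paralogue Ndufa4l2, known to be induced by hypoxia, was scarce. Ndufa4l2 levels were 2.15, 0.367 and 1.11 CPM in tumor (replicates 2, 4 and 20) and 1.96, 1.04 and 0.604 CPM in colon (same order). The groups overlapped (log2 change 0.00 ± 0.71 SE, edgeR adjusted p = 0.999).

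Cox6b2, the form of subunit 6b of testis, was low in both groups and higher in every tumor library than in any colon library, a direction that turned (log2 -0.46) with scaling to 12 pan-epithelial genes. Cox6b2 levels were 5.18, 5.78 and 5.37 CPM in tumor (replicates 2, 4 and 20) and 1.64, 3.5 and 3.95 CPM in colon (same order). Cox6b2 in tumor was at 179.7% of its colon level (log2 change 0.85 ± 0.35 SE, edgeR adjusted p = 0.108). Cox4i2, the form of subunit 4 of lung and of oxygen-sensing cells, had at most 1.35 CPM in any library (log2 -0.55 ± 0.52 SE, edgeR adjusted p = 0.449). The muscle forms Cox6a2 and Cox8b were untested, with 0, 5 and 2 counts of Cox6a2 in tumor (order 2, 4, 20), 0, 3 and 0 in colon, and with 5, 0 and 0 counts of Cox8b in tumor and 9, 2 and 7 in colon. At this depth no difference was detectable for these forms.

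**Figure D2:**
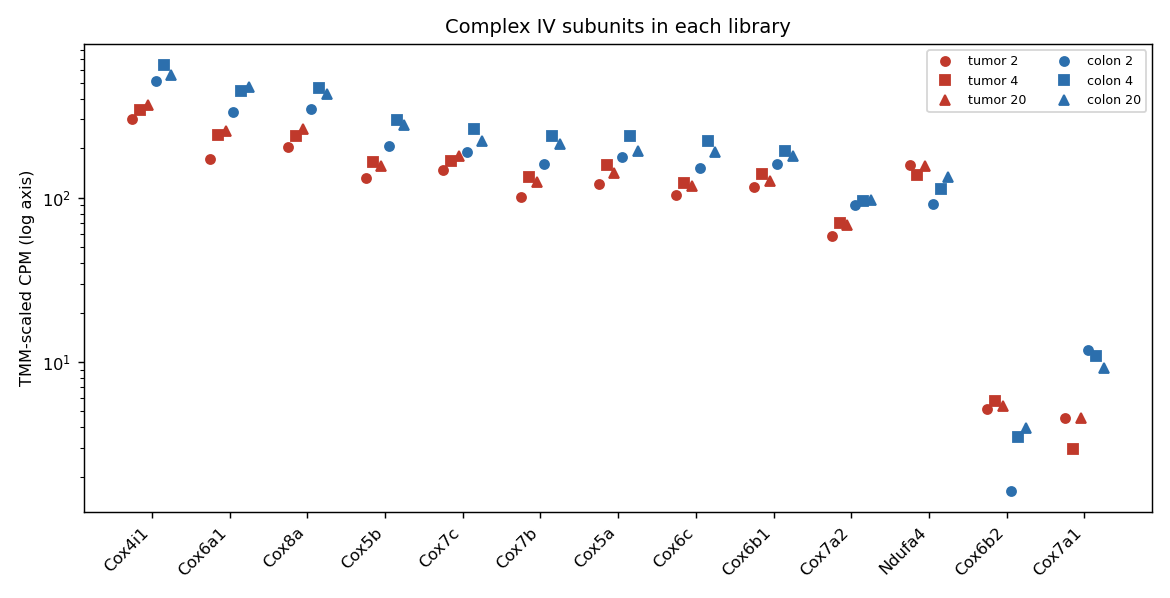
CPM of complex IV subunits in each library (y axis, log scale), with the 10 broadly expressed subunits other than Ndufa4 in order of colon level, then Ndufa4, Cox6b2 and Cox7a1; red is tumor, blue is colon and symbols give the replicate number. Tumor points lie below colon points for the 10 subunits and Cox7a1, and above them for Ndufa4 and Cox6b2.

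The balance within pairs of related forms was tested on the log2 ratio in each library, over 8 pairs. The ratio of Cox7a1 to Cox7a2 was 0.88 lower in tumor, that of Cox6b2 to Cox6b1 was 1.39 higher, and that of Atp5g2 to Atp5g3 was 0.40 higher. For each of these 3 pairs all tumor libraries lay on 1 side of all colon libraries, which gives an exact two-sided permutation p = 0.1, the smallest that 3 against 3 libraries allow, and an adjusted p = 0.267 over the 8 pairs. Exact permutation p-values of the other 5 pairs were 0.2 to 1, and no pair could pass at this number of libraries.

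Complex V, ATP synthase, is a rotary enzyme with a catalytic F1 head, a peripheral stalk and a membrane ring of c subunits. Of its 17 subunits 11 fell and 0 rose, all 17 changes were negative, and the median was -0.50. None had an unadjusted p below 0.05 in the higher direction, and DESeq2 and limma-voom called 0 higher. Of the F1 subunits 4 of 5 fell, of the stalk 2 of 4, of the c subunits 2 of 3 and of the membrane accessory subunits 3 of 5.

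The largest falls were those of Atp5j2, a small membrane subunit, Atp5g3, a c subunit gene, and Atp5d, the delta subunit of F1. Atp5j2 levels were 87.2, 109 and 108 CPM in tumor (replicates 2, 4 and 20) and 124, 171 and 178 CPM in colon (same order). Atp5j2 in tumor was at 64.2% of its colon level (log2 change -0.64 ± 0.17 SE, edgeR adjusted p = 0.0252). Atp5d levels were 196, 224 and 230.3 CPM in tumor (replicates 2, 4 and 20) and 297, 344 and 325 CPM in colon (same order). Atp5d in tumor was at 67.3% of its colon level (log2 change -0.57 ± 0.11 SE, edgeR adjusted p = 0.0084). For both genes the tumor libraries lay below the colon libraries. The c ring is encoded by Atp5g1, Atp5g2 and Atp5g3, whose mature proteins are identical. Atp5g3 levels were 217, 222 and 232 CPM in tumor (replicates 2, 4 and 20) and 296, 381 and 337 CPM in colon (same order). Atp5g3 in tumor was at 66.1% of its colon level (log2 change -0.60 ± 0.12 SE, edgeR adjusted p = 0.00913). Atp5g1 fell by 0.57 (edgeR adjusted p = 0.0382), and another gene with a near-identical stretch had counts that came to 25.2% of its own. Atp5g2 levels were 99.8, 103 and 98.9 CPM in tumor (replicates 2, 4 and 20) and 105, 114 and 126 CPM in colon (same order). Colon values of Atp5g2 were higher than tumor values without passing the test (log2 change -0.20 ± 0.10 SE, edgeR adjusted p = 0.179). Atp5a1, the alpha subunit of the catalytic head, had the highest mean FPKM of complex V, with 329 ± 26.8 FPKM in tumor and 433 ± 35.4 FPKM in colon (SD, n = 3). Atp5a1 levels were 888, 1013 and 1071 CPM in tumor (replicates 2, 4 and 20) and 1268, 1522 and 1461 CPM in colon (same order). Atp5a1 in tumor was at 69.9% of its colon level (log2 change -0.52 ± 0.12 SE, edgeR adjusted p = 0.0181). The catalytic beta subunit, Atp5b, was lower in every tumor library than in every colon library and was not called (log2 -0.32 ± 0.12 SE, edgeR adjusted p = 0.0853). Atp5o, Atp5k and Atp5j passed with the replicate block (edgeR adjusted p = 0.0109, 0.0259 and 0.0365, against 0.0556, 0.0687 and 0.0551 without it). Without colon replicate 4 the calls of Atp5j2, Atp5g1 and Atp5a1 were lost, as they were without tumor replicate 2, and those of Atp5j2 and Atp5g1 were also lost without colon replicate 20. Atp5j2 lost its call without tumor replicate 20 too, Atp5g1 without tumor replicate 4 and in both limma fits on log2 FPKM, and Atp5a1 in the limma fit with a pseudocount of 0.1. Leaving out 1 library moved the count for complex V from 3 (colon replicate 4 left out) to 15 (colon replicate 2 left out), and it was 4, 5, 6 and 7 when tumor replicate 2, colon replicate 20, tumor replicate 20 and tumor replicate 4 were left out.

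Assembly factors were set against the subunits they help to build. Of the 8 complex I assembly factors Ndufaf1 to Ndufaf8, 0 fell and 0 rose, where 16.1% of all genes tested were lower and 16.1% higher. Their summed level was 55.4 to 68.6 FPKM per library, beside 1351 to 1959 FPKM for the 37 complex I subunits. The 8 assembly factors had a median log2 change of -0.16 and a range from -0.44 to 0.25. In the lower direction 1 of them, Ndufaf8, had an unadjusted p below 0.05, none did in the higher direction, and DESeq2 and limma-voom called 0 in both directions. Ndufaf8 levels were 11.97, 15.5 and 15.3 CPM in tumor (replicates 2, 4 and 20) and 17.99, 21.7 and 18.2 CPM in colon (same order). Its groups did not overlap (log2 change -0.44 ± 0.17 SE, edgeR adjusted p = 0.0879). Ndufaf4, which acts early in the building of the peripheral arm, had groups that overlapped. Ndufaf4 levels were 28.9, 22.6 and 29.9 CPM in tumor (replicates 2, 4 and 20) and 24.1, 29.5 and 31.9 CPM in colon (same order). Ndufaf4 in tumor was at 95.1% of its colon level (log2 change -0.07 ± 0.17 SE, edgeR adjusted p = 0.772). A difference between subunits and assembly factors was not tested as such. Cox7a2l (ENSMUSG00000024248, chromosome 17, 83809347 to 83824759, GRCm39), described as a supercomplex factor for complexes III and IV, fell. Supercomplexes and the activity of its protein in these mice were not measured. Cox7a2l levels were 112, 122 and 134 CPM in tumor (replicates 2, 4 and 20) and 161, 176 and 168 CPM in colon (same order). The groups lay apart (log2 change -0.46 ± 0.10 SE, edgeR adjusted p = 0.0148). Its call was lost in 1 of 18 alternatives, without colon replicate 4 (edgeR adjusted p = 0.0571).

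A further 45 assembly factors that do not carry these names were looked at. Of them 5 fell (11.1%) and 1 rose (2.22%), with a median log2 change of -0.21. Of all genes tested 16.1% were lower and 16.1% higher. Changes were negative for 34 of the 45 and positive for 11. An unadjusted edgeR p below 0.05 was seen for 13 in the lower and 1 in the higher direction. All 3 tumor libraries lay below all 3 colon libraries for 16 of the 45, against 24.2% of all genes tested. They lay above them for 3, against 25.3%. Cox10, which acts in making the heme of complex IV, and Sco1, a copper chaperone of complex IV, fell, with log2 values of -1.09 (edgeR adjusted p = 0.00179) and -0.77 (edgeR adjusted p = 0.0259). Cox10 levels were 18.4, 21.9 and 20.9 CPM in tumor (replicates 2, 4 and 20) and 38.5, 48.1 and 44.2 CPM in colon (same order). No tumor library reached the colon range, and the call of Cox10 was kept in all 18 alternatives, while that of Sco1 was lost without colon replicate 4, colon replicate 20 or tumor replicate 20. The other 3 that fell were Surf1, Cox14 and Dmac2, of which Surf1 and Cox14 act in complex IV, with log2 values of -0.61, -0.52 and -0.65 (edgeR adjusted p = 0.0147, 0.0367 and 0.02). Surf1 lost its call without the same libraries as Sco1, and Dmac2 without colon replicate 20. Cox14 kept its call in 12 of 18 alternatives, and lost it in both limma fits on log2 FPKM and without colon replicate 4, colon replicate 20, tumor replicate 2 or tumor replicate 20, with an edgeR adjusted p of up to 0.129. Sdhaf1, which inserts iron-sulfur clusters into Sdhb, rose. Sdhaf1 levels were 39.7, 22.4 and 28.4 CPM in tumor (replicates 2, 4 and 20) and 15.2, 20.2 and 16.9 CPM in colon (same order). All tumor values were above colon values, with replicate 2 highest (log2 change 0.79 ± 0.23 SE, edgeR adjusted p = 0.0378). The call of Sdhaf1 was lost in 8 of 18 alternatives, among them the replicate block (edgeR adjusted p = 0.0853), and its direction turned with scaling to 12 pan-epithelial genes.

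Known regulators of these genes moved in both directions. Of 9 regulators measured, 3 fell (33.3%) and 1 rose (11.1%), where 16.1% of all genes tested were lower and 16.1% higher. Esrrg (ENSMUSG00000026610, chromosome 1, 187340988 to 187947082, GRCm39), estrogen-related receptor gamma, a nuclear receptor that activates genes of oxidative metabolism, fell most. Esrrg levels were 0.147, 0.642 and 0.498 CPM in tumor (replicates 2, 4 and 20) and 10.8, 10.01 and 8.84 CPM in colon (same order). No tumor library came near the colon range (log2 change -4.50 ± 0.46 SE, edgeR adjusted p = 0.000859). Ppargc1b, which encodes the coactivator PGC-1 beta, also fell. Ppargc1b levels were 5.72, 14.03 and 7.37 CPM in tumor (replicates 2, 4 and 20) and 45.4, 49.9 and 50.04 CPM in colon (same order). Ppargc1b in tumor was at 18.7% of its colon level (log2 change -2.42 ± 0.32 SE, edgeR adjusted p = 0.00228). Both calls were kept in all 18 alternatives. Esrra, estrogen-related receptor alpha, fell by 0.64 (edgeR adjusted p = 0.00591), and Pprc1, a coactivator of the same family as Ppargc1b, rose by 0.58 (edgeR adjusted p = 0.0219). The rise of Pprc1 was lost without colon replicate 4 or tumor replicate 20, and its direction turned with scaling to 12 pan-epithelial genes. Ppargc1a, the coactivator PGC-1 alpha, had -0.89 on the log2 scale with all tumor values below colon values (edgeR adjusted p = 0.058). Perm1 had 0.87, the largest positive change of the 9, with all tumor values above colon values, and was not called (edgeR adjusted p = 0.0638). The DNA-binding factors Nrf1, Gabpa and Yy1 had log2 values of 0.14, 0.17 and 0.03, with overlapping groups (edgeR adjusted p = 0.511, 0.315 and 0.866).

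Promoters of the members were searched for the short motifs of 4 of these factors. RefSeq sequences of 250 bases before to 50 bases after the start of transcription (GRCm38.p6, another build than the table's GRCm39) were matched by symbol for 77 of the 95 members, and both strands were searched. The motif GCATGCGC of Nrf1 was in 13 of the 77 promoters (16.9%), against 3.05% of 27025 genes. AAGATGGCG of Yy1 was in 8 (10.4%, against 1.64%), CCGGAAGT of Gabpa in 5 (6.49%, against 4.31%), and TCAAGGTCA of the estrogen-related receptors in 2 (2.6%, against 0.466%). Of the 77 members with a promoter sequence 48 fell, among them 8 of the 13 with the Nrf1 motif, 4 of 8 with that of Yy1, 5 of 5 with that of Gabpa and 2 of 2 with that of the estrogen-related receptors. The 27025 genes are all those with a promoter sequence, more than the 18520 tested for expression. Shares among the tested genes alone were not taken, so the contrast with the members was not matched for expression. A match describes letters in a window and shows neither binding nor a cause.

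The promoters of Sdhd and Atp5g3, which both fell, are shown because they are the 2 with the motif of the estrogen-related receptors, in capitals and in reverse orientation (TGACCTTGA). That of Cox6a1, the broadly expressed complex IV subunit with the largest fall, carries overlapping copies of the Nrf1 motif on both strands, in capitals. That of Cycs, which was not called, carries 1 copy of the same motif and is shown for contrast. All 4 genes lie on the minus strand, and the sequences read 5′ to 3′ along the gene, at chr9:50603800-50604099 for Sdhd, chr2:73911277-73911576 for Atp5g3, chr5:115348909-115349208 for Cox6a1 and chr6:50566520-50566819 for Cycs in GRCm38.p6.
Sdhd: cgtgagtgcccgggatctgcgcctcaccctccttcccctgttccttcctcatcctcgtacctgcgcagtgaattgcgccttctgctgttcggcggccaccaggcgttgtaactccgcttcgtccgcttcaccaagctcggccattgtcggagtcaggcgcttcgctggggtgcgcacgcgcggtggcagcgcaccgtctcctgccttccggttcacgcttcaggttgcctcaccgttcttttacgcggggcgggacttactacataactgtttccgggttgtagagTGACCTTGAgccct
Atp5g3: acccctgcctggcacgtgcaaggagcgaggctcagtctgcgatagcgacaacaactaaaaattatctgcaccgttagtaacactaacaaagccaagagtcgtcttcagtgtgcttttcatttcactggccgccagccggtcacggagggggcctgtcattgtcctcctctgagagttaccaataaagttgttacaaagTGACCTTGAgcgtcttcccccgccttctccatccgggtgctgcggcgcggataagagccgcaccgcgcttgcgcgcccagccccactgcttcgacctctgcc
Cox6a1: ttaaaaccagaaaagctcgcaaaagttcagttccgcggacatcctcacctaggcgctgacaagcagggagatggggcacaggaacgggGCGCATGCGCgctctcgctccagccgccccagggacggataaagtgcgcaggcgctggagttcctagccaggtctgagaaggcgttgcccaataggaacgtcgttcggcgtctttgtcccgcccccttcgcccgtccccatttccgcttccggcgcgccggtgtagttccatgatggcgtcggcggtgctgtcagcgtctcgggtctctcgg
Cycs: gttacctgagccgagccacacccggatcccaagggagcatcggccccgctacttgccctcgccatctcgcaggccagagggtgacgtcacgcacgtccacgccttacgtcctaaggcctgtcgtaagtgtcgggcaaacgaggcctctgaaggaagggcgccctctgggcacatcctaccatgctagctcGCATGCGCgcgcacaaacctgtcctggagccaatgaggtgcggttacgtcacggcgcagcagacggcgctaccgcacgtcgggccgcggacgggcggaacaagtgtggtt

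Other routes by which electrons reach ubiquinone did not move as 1 group. Of 8 genes 4 fell (50%) and 2 rose (25%), where 16.1% of all genes tested were lower and 16.1% higher. Etfa, the alpha subunit of the flavoprotein that takes electrons from fatty acid oxidation, fell. Etfa levels were 54.6, 79.01 and 68.2 CPM in tumor (replicates 2, 4 and 20) and 85.6, 141 and 127 CPM in colon (same order). Etfa in tumor was at 57.1% of its colon level (log2 change -0.81 ± 0.21 SE, edgeR adjusted p = 0.0265). Its call was kept in 14 of 18 alternatives and lost without colon replicate 4, where the edgeR adjusted p was 0.0938, colon replicate 20, tumor replicate 2 or tumor replicate 20. Etfdh, which passes these electrons on to ubiquinone, fell by 0.54 (edgeR adjusted p = 0.0135). Sqor, which oxidizes sulfide, fell as well. Sqor levels were 152, 217 and 202 CPM in tumor (replicates 2, 4 and 20) and 311, 316 and 267 CPM in colon (same order). Sqor in tumor was at 63.9% of its colon level (log2 change -0.65 ± 0.15 SE, edgeR adjusted p = 0.0182). The call of Etfdh was lost without colon replicate 4, and that of Sqor without colon replicate 4 or tumor replicate 20. Chdh, choline dehydrogenase, was the other gene that fell, by 0.61 (edgeR adjusted p = 0.00538).

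Gpd2, the mitochondrial glycerol-3-phosphate dehydrogenase, which brings electrons of cytosolic NADH into the chain, rose. Gpd2 levels were 186, 127 and 134 CPM in tumor (replicates 2, 4 and 20) and 76.04, 65.02 and 60.1 CPM in colon (same order). Its lowest tumor library was above its highest colon library (log2 change 1.15 ± 0.17 SE, edgeR adjusted p = 0.0035). Prodh, proline dehydrogenase, rose too. Prodh levels were 28.6, 39.4 and 30.9 CPM in tumor (replicates 2, 4 and 20) and 16.4, 14.7 and 12.5 CPM in colon (same order). Prodh in tumor was at 226% of its colon level (log2 change 1.18 ± 0.18 SE, edgeR adjusted p = 0.00358). Both calls were kept in 17 of 18 alternatives, and the changes turned to -0.14 and -0.08 with scaling to 12 pan-epithelial genes, which shifted the median of all genes to -1.27. Dhodh, which links pyrimidine synthesis to the chain, was not called (log2 -0.04, edgeR adjusted p = 0.884).

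**Figure D3:**
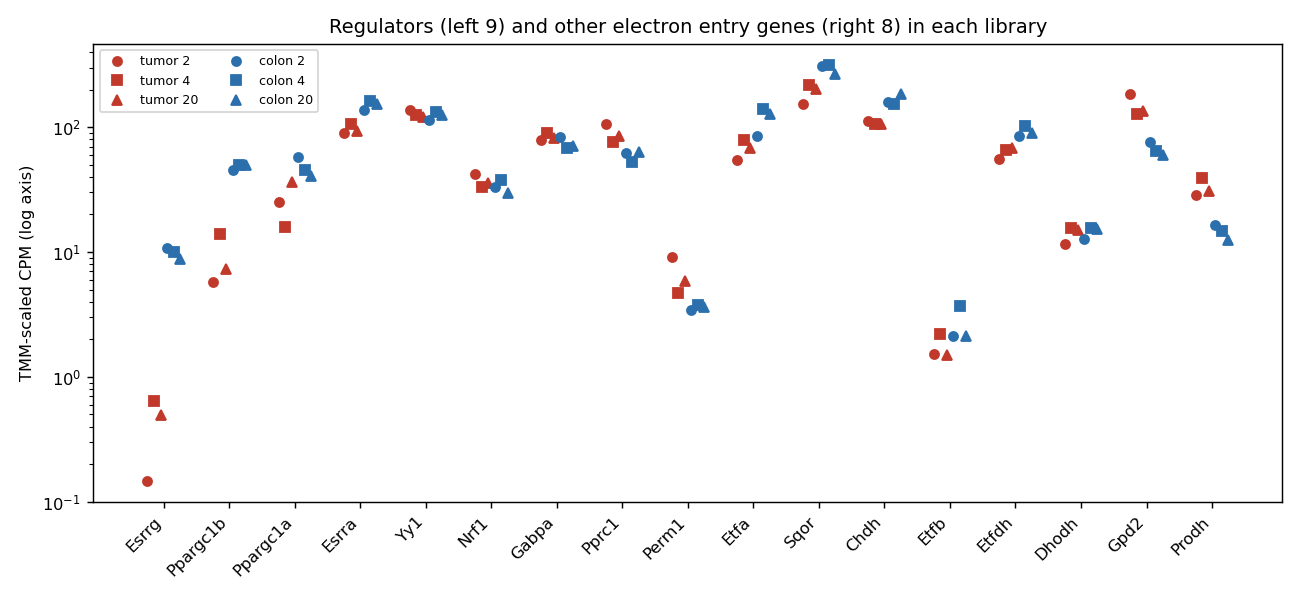
CPM in each library (y axis, log scale) of 9 regulators and then 8 genes of other electron entry, each ordered by log2 change; red is tumor, blue is colon and symbols give the replicate number. Esrrg, Ppargc1b, Ppargc1a and Esrra lie lower in tumor, Pprc1, Perm1, Gpd2 and Prodh lie higher, and Nrf1, Gabpa and Yy1 overlap.

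Of 13 genes for the copying and expression of mitochondrial DNA, 2 fell (15.4%, beside 16.1% of all genes tested) and 0 rose, with a median of -0.19. In the higher direction 0 had an unadjusted p below 0.05, and DESeq2 and limma-voom called 0 higher. Polg2, the accessory subunit of the mitochondrial DNA polymerase, and Mterf4, a factor for mitochondrial ribosome assembly, fell, with log2 values of -1.05 (edgeR adjusted p = 0.0153) and -0.59 (edgeR adjusted p = 0.0148). The call of Mterf4 was lost without tumor replicate 20. Tfam, which packages mitochondrial DNA, had -0.33 (edgeR adjusted p = 0.1), and Polrmt, the mitochondrial RNA polymerase, 0.04 (edgeR adjusted p = 0.786).

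Ribosomal protein genes, which like the subunits are numerous and highly expressed, give a further point of reference. Of 77 mitochondrial ribosomal protein genes 5 were lower (6.49%, beside 16.1% of all genes tested) and 0 higher, with a median log2 change of -0.09. In the higher direction 1 had an unadjusted p below 0.05, and DESeq2 and limma-voom called 0 higher. Of 78 cytosolic ribosomal protein genes tested 1 was lower and 1 higher (1.28% each), with a median of -0.10. Changes were negative for 48 of the 77 and 60 of the 78. All 3 tumor libraries lay below all 3 colon libraries for 15 of the 77 and 29 of the 78, against 24.2% of all genes tested. They lay above them for 5 and 6, against 25.3%. Beside these, the subunits had 58 of 82 lower and a median of -0.53. No test of a list against another was made.

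Some members share sequence or position with other genes. Transcripts of another annotated gene shared a stretch of at least 150 bases at 98% identity or more with 26 of 94 members matched to GENCODE, and for 3 of these the other gene's counts were over 50% of the member's own. These were Cox5b-ps with Cox5b, Ndufb5 with Mrpl47 and Atp5o with D430001F17Rik, and their values are uncertain. Cox5b-ps itself was lower in tumor (log2 -0.77 ± 0.19 SE, edgeR adjusted p = 0.019), beside -0.79 for Cox5b, and reads of the pair may be exchanged. The call of Cox5b-ps was kept in 14 of 18 alternatives and lost without colon replicate 4, colon replicate 20, tumor replicate 2 or tumor replicate 20. By position, 38 members overlap another gene of the table, 34 of them with a gene on the opposite strand. Among the 34 are Ndufb5 with Mrpl47 and Atp5o with D430001F17Rik, so these pairs are in both lists. The sequence search was not limited to 1 strand, and a shared stretch of such a pair need not be a copy elsewhere. Cox5b-ps, Cox7c, Atp5b, Atp5j, Atp5k, Atp5o, Ndufa12, Ndufaf4, Ndufaf8, Ndufb5, Ndufc2, Ndufs4, Ndufs6 and Ndufv2 were named after their values were seen, as were the genes outside the members that were not among the largest changes of their list.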

How the data were processed

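RNA was extracted from 3 tumor and 3 colon samples, and a stranded mRNA kit was used for library preparation per the labels. In the submitters' processing notes, cutadapt, HISAT and the build GRCm39 are named. Not given in the sources used here were tool versions, the counter and its strand setting. Deposited by the authors was 1 table with a read count per gene and library, not normalized, and the FPKM derived from it, which divides counts by gene length and library total. In the order 2, 4 and 20, tumor libraries held 19421883, 20789620 and 17679579 counts, and colon libraries 18796670, 16995481 and 19377759.

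Counts were fitted with edgeR 4.0.16 (R 4.3.3) using TMM scaling, filterByExpr and the quasi-likelihood test, without a block, as in the study's comparison. Scripts were tested on simulated data. Standard errors were taken from the F statistic and are approximate. Paralogue ratios were taken on log2 CPM (prior count 2) and tested by exact two-sided permutation (SciPy 1.17.1). Alternatives were RLE, upper quartile and pan-epithelial scaling, other filters, DESeq2 1.42.0, limma-voom and limma 3.58.1 on log2(FPKM + 1) and log2(FPKM + 0.1), leaving out 5 genes that each took over 1% of some library, the replicate block and leaving out each library. Shared stretches were sought with BLAST 2.17.0 in GENCODE transcripts (an older build, used for sequence and not for position).

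The labels share the numbers 2, 4 and 20, and the series design calls the tissues paired, so libraries with 1 number were taken as a pair in the replicate block, an alternative, and in differences within a number, but not in the main test. Their departures from the group means correlated at 0.19 (number 2), 0.12 (number 4) and 0.02 (number 20). Whether a number stands for 1 animal is not stated in the labels, and p-values therefore reflect only how these samples vary.

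The members, the lists of related genes and markers, the tests and the rule for named genes were chosen with earlier results of these data known. Named genes were, in each complex and among the assembly factors, the 3 largest changes in each direction among called members with at least 5 CPM on average and the member with the highest mean FPKM, the genes of the paralogue pairs, all of complex II, Cyc1, Cycs, Atpif1 and Cox7a2l, and the 2 largest changes in each direction of each list of related genes. The values of 1 complex I core subunit named by this rule are not reported here, though counts and medians include it.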

Additional observations from a re-analysis of the deposited data

How the results depend on the processing

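With 1 library left out, the number of lower subunits ran from 26 to 68, of complex I subunits from 9 to 29, of complex II from 2 to 4, of complex III from 5 to 9, of complex IV from 7 to 11 and of complex V from 3 to 15. The lowest of each was without colon replicate 4 or, for complex III, equally without colon replicate 20. In these fits 0 to 1 subunits of complex IV, and of all subunits, were higher, 0 to 1 members among the assembly factors were lower, and the subunit median ran from -0.61 to -0.46, or from -0.62 to -0.46 relative to the median of all genes. Over all genes 1904 to 2930 were then lower and 1905 to 2908 higher. The ratio of Atp5g1 to Atp5g3 ran from -0.061 to 0.12, and it was the only one of 8 pairs to turn. The change of Ndufa4l2 ran from -0.72 to 0.55.

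In limma fits on log2(FPKM + 1) and on log2(FPKM + 0.1), 15 and 15 complex I subunits and 6 and 5 complex V subunits were lower, 40 and 39 subunits in all, and 2 subunits were higher with each, both in complex IV (Cox6b2 and Ndufa4). The subunit medians were -0.40 and -0.40, those of all genes 0.09 and 0.12, and the split over all genes was 3860 higher with 2350 lower and 3911 higher with 2408 lower. Scaling to 12 pan-epithelial genes, of which 3 had themselves risen, moved the median of all genes to -1.27 and that of the subunits to -1.81, with 14681 genes lower and 751 higher, and 80 subunits, 37 in complex I, 17 in complex V, and 9 assembly factors lower. Under it Cox6b2 was at -0.46, Gpd2 at -0.14, Ndufa4 at -0.90, Ndufa4l2 at -1.29, Pprc1 at -0.71, Prodh at -0.076 and Sdhaf1 at -0.53. With 10 of those 12 genes, leaving out 2 seen to differ strongly between the groups, a scaling chosen after seeing the data, the subunit median was -0.58, with 62 lower. Ndufa4l2 was then at -0.065, and at -0.00054 by DESeq2, -0.0033 with RLE scaling, -0.0032 with at least 1 CPM in 3 libraries, -0.021 by limma on log2(FPKM + 0.1), -0.19 by limma-voom, -0.00043 without a filter, -0.029 with upper quartile scaling and -0.11 with the replicate block.

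With the replicate block, which takes equal numbers as pairs, 62 subunits were lower, 5 gained (Atp5j, Atp5k, Atp5o, Cox7c and Ndufs6) and 1 lost (Ndufa12), Sdhaf1 lost its call, and no other call of a subunit or of a gene named by the rule changed. The cause of these shifts was not tested. With 3 libraries per group, small changes and the scarce forms Cox6a2, Cox8b, Cox4i2 and Ndufa4l2 were poorly resolved. The direction of the subunit median was the same under all 18 alternatives.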

Other observations

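Atpif1, which encodes an inhibitor that stops ATP synthase from running backwards, lies outside the name pattern and was not called. Its levels were 92.1, 108 and 119 CPM in tumor (replicates 2, 4 and 20) and 94.9, 136 and 139 CPM in colon (same order). The groups overlapped, because colon replicate 2 lay among the tumor libraries (log2 change -0.22 ± 0.17 SE, edgeR adjusted p = 0.378).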
